A study of Mus musculus with 24 samples.

Results

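Oxidative phosphorylation makes most of a hepatocyte's ATP on the inner mitochondrial membrane. Complexes I and II feed electrons from NADH and succinate into ubiquinone, complex III passes them to cytochrome c, complex IV hands them to oxygen, and complex V, the ATP synthase, uses the resulting proton gradient. Most subunits are encoded in the nucleus and built around a small mitochondrially encoded core, whose transcripts are not analysed here. The genes described are the protein-coding mouse genes named Nduf (a, b, c, s or v), Sdha to Sdhd, Uqcr, Cox4 to Cox8 and Atp5, chosen by symbol alone. They were 93 of the 53677 gene identifiers in the count matrix, of which 36 encode structural subunits of complex I, 8 complex I assembly factors (Ndufaf), 4 complex II, 8 complex III, 19 complex IV (Ndufa4 and Ndufa4l2 included) and 16 complex V. The other 2 are Cox7a2l, which joins complexes III and IV into supercomplexes, and Atp5s, also named Dmac2l.

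The 24 livers came from a separate mouse each. The inbred strain 129S1/SvImJ gave 5 chow livers and 6 high-fat diet livers, and the inbred strain C57BL/6J gave 6 and 7. The series title names TCF7L2 binding and chromatin availability, and only the RNA libraries are described here. Age, sex, diet composition and feeding time are not described here. Libraries held 6707013 to 13124881 counts. Genes of this set took 0.817 to 0.973% of the counts in chow livers and 0.874 to 0.953% in high-fat livers of 129S1/SvImJ, and 0.779 to 0.858% and 0.831 to 0.966% in those of C57BL/6J. The summed level of 10 hepatocyte markers was 101300 to 119700 CPM (counts scaled to library size, as edgeR gives them) in chow livers and 88240 to 110300 in high-fat livers of 129S1/SvImJ. In C57BL/6J it was 111500 to 119800 and 83240 to 102200 CPM, lower in every high-fat liver than in any chow liver. Alb was the largest of these markers (means of 56330 and 45350 CPM in 129S1/SvImJ, 66690 and 49500 in C57BL/6J, chow then high-fat diet). In 129S1/SvImJ the means of Cps1, Apob, Cyp2e1 and Ass1 were higher on high-fat diet and those of the other markers lower. In C57BL/6J all were lower, Cyp2e1 hardly (6126 and 6077 CPM). The summed level of 7 striated muscle markers was at most 0.574 CPM. Of 8 adipocyte markers, the sum was 91.5 to 369 CPM in high-fat livers of C57BL/6J against 31.5 to 41.5 in its chow livers, and 19.8 to 36.8 in 129S1/SvImJ. Most of that difference was in Cfd (147 against 3.53 CPM), Cidea (17.8 against 0.0679) and Lipe (49.0 against 29.4), while the group means of Adipoq, Lep, Plin1 and Retn were at most 0.469 CPM. Counts of Adipoq, Lep and Plin1 were 15, 40 and 19 in C57BL/6J high-fat replicate 5 and 7, 1 and 3 in 129S1/SvImJ chow replicate 1. Any other library held at most 2 of each. Kupffer cell markers (9 genes) summed to 66.8 to 179 (chow) and 107 to 239 CPM (high-fat diet) in 129S1/SvImJ, and to 205 to 344 and 197 to 493.1 CPM in C57BL/6J. Their part in the results below was not tested. In whole liver, fewer cells of a type and less RNA per cell cannot be told apart.

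Of the 93 genes, 87 had enough counts to be tested. The other 6 are all complex IV isoforms known from muscle, lung or testis. Cox7b2 and Cox8c had no count in any library, which allows at most 0.0722 CPM over the 5 chow livers of 129S1/SvImJ and at most 0.0384 CPM over the 7 high-fat livers of C57BL/6J (3 counts, counting error only). Cox4i2, Cox6a2 and Cox8b, the isoforms of lung and of heart and skeletal muscle, had at most 10 counts in any group. Cox7a1, the isoform of heart and skeletal muscle, had 14, 26, 36 and 36 counts in the 4 groups (129S1/SvImJ chow and high-fat diet, then C57BL/6J chow and high-fat diet) and reached 1.16 CPM in its highest library. Liver isoforms therefore held nearly all of each pair. Per kilobase of principal transcript, Cox4i1 was 99.94 to 99.99% of Cox4 on average in each group, Cox6a1 at least 99.96% of Cox6a, Cox7a2 98.9 to 99.3% of Cox7a and Cox8a at least 99.90% of Cox8. Ndufa4, a subunit of complex IV despite its name, was 99.57 to 99.63% of the sum with its hypoxia-linked homologue Ndufa4l2. The Cox6b pair was the exception, and only in 129S1/SvImJ, as described below.

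Levels per length differed widely between subunits of 1 complex. In complex V the catalytic beta subunit Atp5b had the highest mean over 24 libraries, 543 CPM per kb, and Atp5g2 the lowest, 19.8. In complex IV the range ran from 324 CPM per kb for Cox4i1 to 1.14 for Ndufa4l2. The complex II range was from 183 for the flavoprotein Sdha to 38.7 for the membrane anchor Sdhc, and the complex III range, the narrowest in fold, from 175 for Uqcrq to 112 for the core protein Uqcrc2. Of the core subunits of complex I the lowest was Ndufs8 at 43.7. Its accessory subunits lay between 131 (Ndufa6) and 7.18 (Ndufb2), and the assembly factors between 14.7 (Ndufaf1) and 3.29 (Ndufaf5), the lowest complex I class. The lengths are those of the annotation's principal transcripts, and a long model lowers the value: 2413 bases for Ndufb2 and 2676 for Atp5g1.

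**Figure D1:**
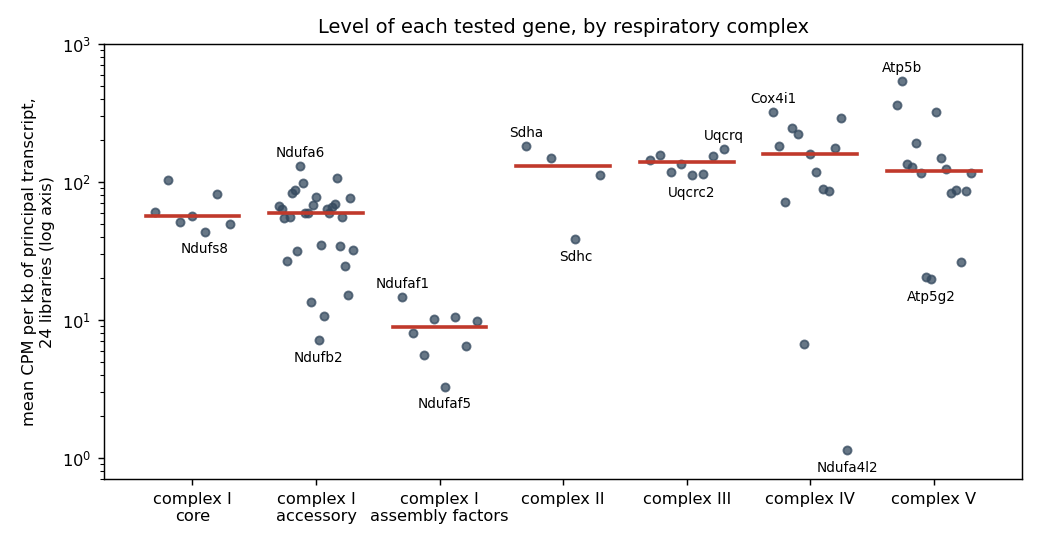
Mean CPM per kilobase of principal transcript over 24 libraries (log axis) for 85 tested genes, 1 point each, by complex; red bars are the medians of each complex, and the lowest gene of each, and the highest outside the core of complex I, are named. Complex I assembly factors lie lowest of the complex I classes (3.29 to 14.7) and complex IV has the widest range, 1.14 to 324.

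The first question was which of these genes differ between the 2 strains, and the largest difference by far was in a single complex IV isoform. Cox6b subunits sit on the outer face of complex IV, where they bridge the enzyme's dimer. Cox6b1 is the somatic form, and Cox6b2 is known from testis. Cox6b2 (ENSMUSG00000051811.14, chromosome 7, 4751792 to 4753094, minus strand, mm10) was read in every liver of 129S1/SvImJ and hardly at all in C57BL/6J. On chow its level was 5.69, 6.18, 6.21, 6.97 and 5.51 CPM in the 5 livers of 129S1/SvImJ. In the 6 livers of C57BL/6J the lowest was 0, the median 0.133 and the highest 0.233 CPM. The 6 high-fat livers of 129S1/SvImJ had 7.34 at the lowest, 8.98 at the median and 12 CPM at the highest, and the 7 of C57BL/6J had 0, 0.0756 and 0.609 CPM. The groups did not overlap on either diet. In raw counts that is 255 against 9 on chow, a ratio of 45.8 per sequenced count with an exact 95% interval of 23.8 to 101, and 597 against 12 on high-fat diet, a ratio of 59.3 (33.7 to 115). These intervals cover counting error only. The edgeR log2 fold changes were 5.40 (SE 0.405, adjusted p = 6.66e-11) and 5.81 (SE 0.353, adjusted p = 8.01e-13). Per length, Cox6b2 was 4.41% ± 0.618 (SD, n = 5) of the Cox6b sum in 129S1/SvImJ on chow and 6.05% ± 1.2 (SD, n = 6) on high-fat diet, against 0.127% ± 0.0866 (SD, n = 6) and 0.146% ± 0.213 (SD, n = 7) in C57BL/6J.

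Cox6b1 (chromosome 7, 30616861 to 30626151, minus strand) was also higher in 129S1/SvImJ, by far less. It had 136, 139, 191, 143 and 141 CPM in 129S1/SvImJ on chow and 107, 117 and 126 CPM (lowest, median, highest) in C57BL/6J on chow. The log2 difference was 0.37 on chow (SE 0.071, edgeR adjusted p = 0.000273) and 0.37 on high-fat diet (SE 0.065, edgeR adjusted p = 6.63e-05), and the groups did not overlap on either diet. So the low Cox6b2 of C57BL/6J was not accompanied by a higher Cox6b1. The tested gene nearest to Cox6b2, the histone methyltransferase gene Kmt5c at 4278 bases, differed by 0.37 on chow (edgeR adjusted p = 0.0276) and 0.32 on high-fat diet (edgeR adjusted p = 0.0293). Fam71e2, the next gene upstream on the same strand, was too low to test (3, 18, 1 and 4 counts in the 4 groups).

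The bases just upstream of the 2 Cox6b genes are shown because they carry the isoform pair with the largest strain difference. They are RefSeq promoter windows (GRCm38.p6), cut where any annotated exon begins, 5′ to 3′ on the strand of the gene. Capitals mark CCAAT on either strand, the only one of 6 searched motifs present in these stretches. The Cox6b1 stretch lies 187 to 38 bases before the RefSeq start (chr7:30626152-30626301) and holds 2 matches. The Cox6b2 stretch lies 131 to 1 bases before the start (chr7:4753095-4753225) and holds 1. Both are the reference sequence, not that of 129S1/SvImJ.
Cox6b1: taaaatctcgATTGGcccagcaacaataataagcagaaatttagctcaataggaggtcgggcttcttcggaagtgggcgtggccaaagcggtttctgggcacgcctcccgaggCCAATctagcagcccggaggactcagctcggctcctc
Cox6b2: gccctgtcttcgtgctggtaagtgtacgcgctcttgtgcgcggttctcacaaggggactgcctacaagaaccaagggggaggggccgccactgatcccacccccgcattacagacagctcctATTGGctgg

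On chow, 12 of the 87 tested genes were higher in 129S1/SvImJ and 3 lower (17.2% called, against 25.0% of all 14533 genes tested, 12.6% higher and 12.5% lower). On high-fat diet 22 were higher and 1 lower (26.4% called, against 37.0% of all genes, 17.9% higher and 19.1% lower). The share called is thus below the background on both diets in this fit. With no filter on low counts it was above it, 14.3 against 10.8% on chow and 25.3 against 17.9% on high-fat diet. That background held 30864 genes in place of 14533, and the set 91 genes in place of 87. Calls in the set were then 13 and 23. Over all genes they were 3332 and 5524, against 3636 and 5375 in the main fit, so the background share fell mainly because more genes were counted. More of the calls in the set were higher than lower in 129S1/SvImJ. On chow that balance was 9 to 4 without 129S1/SvImJ chow replicate 3, 12 to 7 with the level of 7SK RNA (described below) as a covariate and 7 to 5 in the 22 libraries of low 7SK. Libraries of the strains did not overlap for 10 higher and 1 lower gene on chow (7.49 and 7.65% of all genes) and for 13 higher genes on high-fat diet (7.88%). The median log2 difference of the 87 genes was 0.06 on chow and 0.08 on high-fat diet, against 0.01 and 0.01 over all genes. The chow median turned to -0.02 without 129S1/SvImJ chow replicate 3 and to -0.04 in the 22 libraries of low 7SK. Of the called genes, 11 were called in the same direction on both diets, 73.3% of the chow calls and 47.8% of the high-fat calls. The same overlap was not counted over all genes tested, so whether it is particular to this set is not known. These comparisons share no library.

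Complex I held the next largest difference. Ndufa12, an accessory subunit added late near the NADH-oxidising arm (chromosome 10, 94198720 to 94221443, plus strand), had 39.2, 38.3, 46.1, 45.4 and 36.8 CPM in 129S1/SvImJ on chow. In C57BL/6J on chow it had 13.2 at the lowest, 16.3 at the median and 23.1 CPM at the highest. On high-fat diet the values were 42.3, 45.7 and 49.5 CPM in 129S1/SvImJ against 16.4, 19.5 and 20.1 in C57BL/6J. Every liver of 129S1/SvImJ was above every liver of C57BL/6J, and the log2 difference was 1.255 on chow (SE 0.102, edgeR adjusted p = 2.88e-10) and 1.29 on high-fat diet (SE 0.092, edgeR adjusted p = 1.89e-11). Its 1 annotated near-identical copy held 1.09% of its CPM. The neighbouring gene Nr2c1, 1509 bases away, encodes a nuclear receptor and differed in the opposite direction (-0.42, edgeR adjusted p = 0.00126 on chow, and -0.23, edgeR adjusted p = 0.0415 on high-fat diet).

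Ndufa6, an accessory subunit of the LYR family (chromosome 15, 82350140 to 82354322, minus strand), went the other way. On chow it had 57.1, 55.8, 79.3, 68.9 and 65.9 CPM in 129S1/SvImJ against 77.4, 91.0 and 103 CPM (lowest, median, highest) in C57BL/6J. The groups overlapped in 1 library of 129S1/SvImJ, and the log2 difference was -0.48 (SE 0.102, edgeR adjusted p = 0.000949), with -0.37 on high-fat diet (SE 0.093, edgeR adjusted p = 0.00248). Ndufa3, a small accessory subunit of the membrane arm, was lower in 129S1/SvImJ on chow with no overlap (38.1 ± 1.59 CPM, SD, n = 5, against 46.1 ± 3.68, SD, n = 6), by -0.28 (edgeR adjusted p = 0.00434), and was not called on high-fat diet. Higher on both diets were Ndufab1, the mitochondrial acyl carrier protein (0.32 on chow and 0.42 on high-fat diet), Ndufs5, an accessory subunit (0.50 and 0.51), and Ndufs7, a core iron-sulphur subunit (0.31 and 0.23). In the 22 libraries of low 7SK the chow calls of Ndufs5 (0.31, edgeR adjusted p = 0.14) and Ndufs7 (0.24, edgeR adjusted p = 0.0568) were lost. Calls on both diets were lost for Ndufs5 in the lower 12 libraries by 7SK and for Ndufs7 in the upper 12. The chow call of Ndufab1 was lost in the upper 12 (0.13, edgeR adjusted p = 0.562). The near-identical gene BC002163 had the opposite order of levels to Ndufs5, with 0.119 and 0.0697 CPM in 129S1/SvImJ and 0.588 and 0.769 in C57BL/6J, so its count is uncertain where reads could be split between them. On high-fat diet Ndufv1, which binds the flavin that accepts electrons from NADH, was higher by 0.21 (edgeR adjusted p = 0.00526), and the assembly factor Ndufaf4 by 0.38 (edgeR adjusted p = 0.00529).

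In complex IV the small membrane subunit Cox7c (chromosome 13, 86044816 to 86046904, minus strand) followed Cox6b2. On chow it had 55.4, 53.5, 54.9, 55.1 and 49.8 CPM in 129S1/SvImJ, against 34.4, 36.2 and 42.6 CPM (lowest, median, highest) in C57BL/6J. On high-fat diet it had 58.6, 65.0 and 68.4 CPM against 29.4, 34.7 and 40.3. There was no overlap on either diet, and the log2 difference was 0.54 on chow (SE 0.068, edgeR adjusted p = 1.06e-06) and 0.88 on high-fat diet (SE 0.062, edgeR adjusted p = 1.65e-11). Cox7a2 was lower in 129S1/SvImJ on chow by -0.21 (edgeR adjusted p = 0.0127), with overlapping groups, and differed by -0.01 on high-fat diet. Cox7b was higher on high-fat diet by 0.23 (edgeR adjusted p = 0.00653, no overlap). The other liver forms were not called in either strain comparison: Cox4i1 (0.16 and 0.07), Cox6a1 (0.09 and -0.14), Cox8a (0.04 and -0.03), Ndufa4 (-0.09 and 0.05) and Ndufa4l2 (-0.03 and -0.15). The supercomplex factor Cox7a2l, of which C57BL/6J is known to carry a shortened protein form, was not called either (-0.02, edgeR adjusted p = 0.89 on chow, and 0.17, edgeR adjusted p = 0.119 on high-fat diet). Gene counts do not read the protein form.

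**Figure D2:**
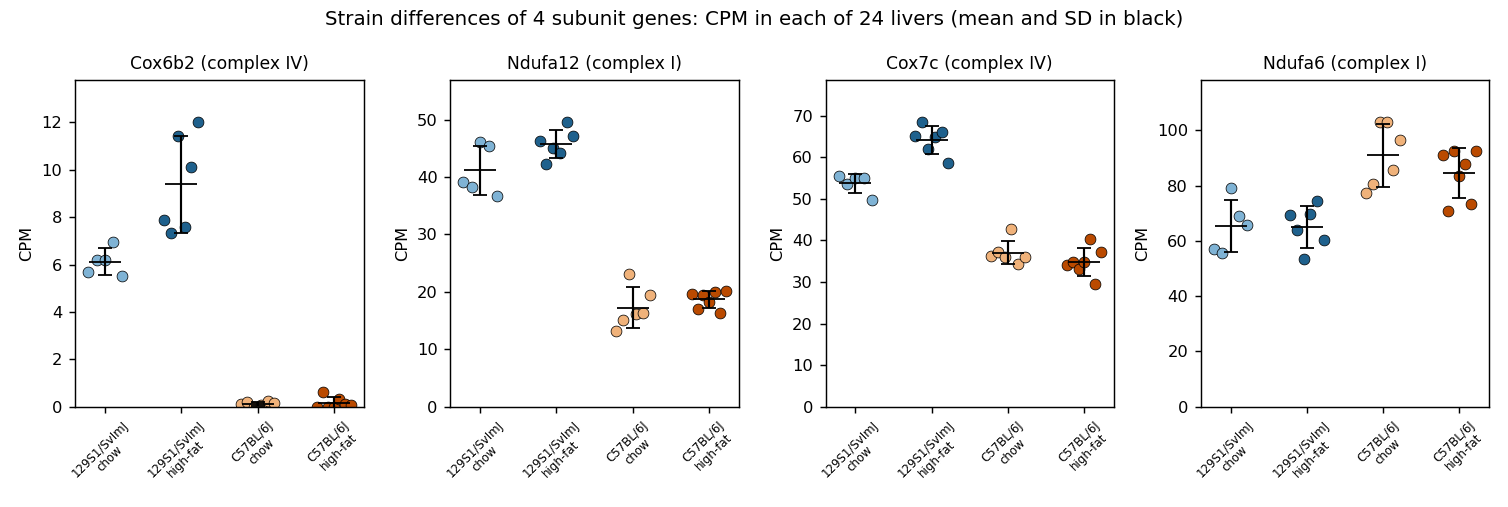
CPM of Cox6b2, Ndufa12, Cox7c and Ndufa6 in each of 24 livers (points) by strain and diet, with the mean and SD of each group in black. Cox6b2, Ndufa12 and Cox7c do not overlap between strains on either diet, while the Ndufa6 groups overlap.

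Of the 4 subunits of complex II only the iron-sulphur subunit Sdhb was called between strains. It had 159, 167, 238, 178 and 192 CPM in 129S1/SvImJ on chow against 130, 135 and 144 CPM (lowest, median, highest) in C57BL/6J. The groups did not overlap on either diet, and the log2 difference was 0.45 on chow (SE 0.083, edgeR adjusted p = 0.000162) and 0.50 on high-fat diet (SE 0.076, edgeR adjusted p = 1.05e-05). The partners Sdha (-0.01 and -0.10), Sdhc (-0.04 and -0.12) and Sdhd (-0.00 and 0.01) were not called. In complex III the core proteins were called on 1 diet each, Uqcrc1 on chow (0.17, edgeR adjusted p = 0.0246; 0.0581 and 0.0589 without 129S1/SvImJ chow replicates 3 and 5) and Uqcrc2 on high-fat diet (0.24, edgeR adjusted p = 0.00038).

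Complex V has 3 genes, Atp5g1, Atp5g2 and Atp5g3, for the same mature subunit c, the protein of the membrane ring. Only Atp5g1 (chromosome 11, 96068852 to 96075670, minus strand) was called between strains. On chow it had 61.7, 63.8, 76.5, 56.1 and 60.4 CPM in 129S1/SvImJ against 44.7, 50.3 and 54.1 CPM (lowest, median, highest) in C57BL/6J. On high-fat diet it had 60.9, 63.1 and 65.8 CPM against 39.9, 46.2 and 48.3. The groups did not overlap, and the log2 difference was 0.35 (SE 0.07, edgeR adjusted p = 0.00044) and 0.50 (SE 0.064, edgeR adjusted p = 8.73e-07). Atp5g2 differed by -0.02 and 0.10 and Atp5g3 by -0.04 and -0.05, none of them called. Per length Atp5g3 made up 87.4% ± 0.877 (SD, n = 5) of the 3 genes in 129S1/SvImJ on chow and 90.4% ± 0.455 (SD, n = 7) in C57BL/6J on high-fat diet. The called gene Atp5g1 is thus a minor one: 6.85% ± 0.44 (SD, n = 5) and 4.52% ± 0.426 (SD, n = 7) in the same groups. Atp5o, the stalk subunit that carries oligomycin sensitivity, was higher in 129S1/SvImJ on both diets (0.16, edgeR adjusted p = 0.0347, and 0.24, edgeR adjusted p = 0.000539). The chow call ended without replicate 3, 4 or 5 of 129S1/SvImJ (0.109, 0.0767 and 0.067) or 5 or 6 of C57BL/6J (0.0628 and 0.0525). Atp5e, the epsilon subunit, was called on chow only (0.30, edgeR adjusted p = 0.0178), and that call ended without 129S1/SvImJ chow replicate 3 (adjusted p = 0.0988).

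**Figure D3:**
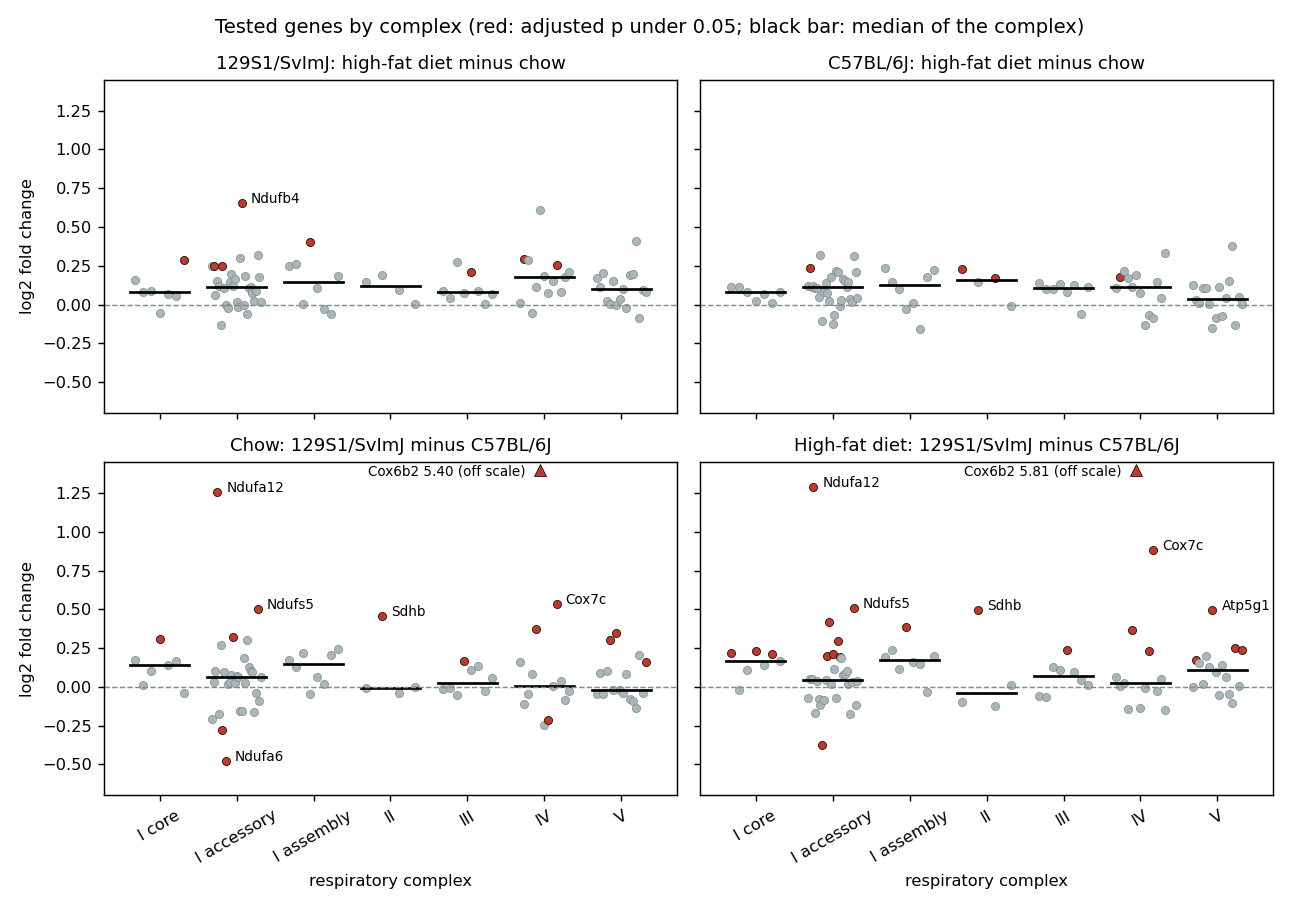
The edgeR log2 fold changes of 85 tested genes by complex in the 4 comparisons; red points passed an adjusted p under 0.05, black bars are the median of each complex, and Cox6b2 (5.40 and 5.81) is drawn off scale as a triangle. The medians of the diet changes lie just above 0 in each complex, and strain differences are led by single genes of complexes I, II, IV and V.

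The second question was how the high-fat diet changed these genes within each strain. In 129S1/SvImJ, 8 of 87 tested genes rose and 0 fell (9.20% called, against 10.4% of all genes, 5.41% higher and 5.01% lower). In C57BL/6J, 4 rose and 0 fell (4.60% called, against 14.9% of all genes, 7.66% higher and 7.20% lower). Groups did not overlap for 8 higher and 0 lower genes in 129S1/SvImJ (3.96 and 3.78% of all genes) and 2 higher and 0 lower in C57BL/6J (1.78 and 2.11%). The share called was below the background in C57BL/6J. In 129S1/SvImJ it was below it in the main fit. It was above it with DESeq2 (12.6% called, against 12.3% of all genes) and with limma on the deposited variance-stabilized values (11.5%, against 10.7%). The same held with no filter on low counts (8.79%, against 3.7%) and with 7SK as a covariate (18.4%, against 11.8%). Without the filter 8 genes of the set were called, as in the main fit, and the background was the larger one of 30864 genes. Without 129S1/SvImJ chow replicate 3 the share was also above it (23.0%, against 9.47%). The fold changes lay mostly on 1 side: 74 of 87 were above 0 in 129S1/SvImJ and 71 of 87 in C57BL/6J, against 7144 and 7455 of 14533 for all genes. The median log2 fold change was 0.11 and 0.10, against -0.00 and 0.01 over all genes. By complex the medians in 129S1/SvImJ ran from 0.08 (complexes I core and III) to 0.18 (complex IV), and in C57BL/6J from 0.04 (complex V) to 0.16 (complex II). Within the upper 12 libraries by 7SK the 129S1/SvImJ medians were below 0 for the core (-0.07) and accessory subunits (-0.02) and the assembly factors (-0.02) of complex I and for complex III (-0.05). The SE of the 8 that rose in 129S1/SvImJ was 0.053 to 0.117.

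Complex I supplied 4 subunits and 1 assembly factor of the 8. Ndufb4, an accessory subunit of the distal membrane arm (chromosome 16, 37647170 to 37654453, minus strand), changed most. It had 7.67, 7.75, 8.23, 9.89 and 8.14 CPM in 129S1/SvImJ on chow and 10.6, 13.3 and 14.7 CPM (lowest, median, highest) on high-fat diet. The groups did not overlap, and the log2 fold change was 0.66 (SE 0.112, edgeR adjusted p = 0.000314). In C57BL/6J it had 8.06, 9.29 and 10.5 CPM on chow, and on the high-fat diet 8.77, 11.1 and 12.5, overlapping, and differed by 0.21 on the log2 scale (edgeR adjusted p = 0.167). Ndufa10, an accessory subunit related to nucleoside kinases (chromosome 1, 92439010 to 92473860, minus strand), rose in both strains. It had 117, 117, 118, 117 and 122 CPM in 129S1/SvImJ on chow and 135, 141 and 148 CPM on high-fat diet, or 0.25 on the log2 scale (SE 0.053, edgeR adjusted p = 0.00291). In C57BL/6J it had 107, 115 and 128 CPM on chow, and on the high-fat diet 122, 137 and 144, or 0.23 on the log2 scale (SE 0.048, edgeR adjusted p = 0.0018), and the groups overlapped there only. Ndufv2, a core iron-sulphur subunit, rose by 0.29 in 129S1/SvImJ (edgeR adjusted p = 0.0205, overlapping groups), Ndufa3 by 0.25 (edgeR adjusted p = 0.0219) and the assembly factor Ndufaf4 by 0.40 (edgeR adjusted p = 0.0268). The calls of Ndufv2 and Ndufaf4 both ended without 129S1/SvImJ chow replicate 1 (adjusted p = 0.0857 and 0.102), and without its chow replicate 2 (0.0667 and 0.0544). That of Ndufv2 also ended without high-fat replicate 5 (0.052), that of Ndufaf4 without high-fat replicate 3 (0.0546) or 6 (0.0603), and that of Ndufa3 without chow replicate 4 (0.054) or high-fat replicate 4 (0.0541).

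In complex IV, Cox5a, a matrix-side subunit (chromosome 9, 57521274 to 57532426, plus strand), rose in both strains. It had 97.6, 96.7, 112.6, 106 and 104 CPM in 129S1/SvImJ on chow and 117, 128 and 134 CPM (lowest, median, highest) on high-fat diet, with no overlap and a log2 fold change of 0.30 (SE 0.059, edgeR adjusted p = 0.00175). In C57BL/6J it had 106, 111 and 121 CPM on chow, and on the high-fat diet 115, 125 and 142, overlapping, with 0.18 (SE 0.054, edgeR adjusted p = 0.0258). That call in C57BL/6J was lost when chow replicate 2 (adjusted p = 0.0537) or high-fat replicate 7 (0.0696) was left out. Cox7c rose in 129S1/SvImJ by 0.26 (SE 0.068, edgeR adjusted p = 0.0152, no overlap) and differed by -0.09 in C57BL/6J (edgeR adjusted p = 0.378). Cox6b2 in 129S1/SvImJ had non-overlapping groups and the second largest fold change, 0.61, but its SE was 0.249 and it was not called (edgeR adjusted p = 0.125). The remaining fixed isoforms of complex IV were not called in either strain: Cox4i1 (0.01 in 129S1/SvImJ and 0.10 in C57BL/6J), Cox6a1 (-0.06 and 0.17), Cox6b1 (0.11 and 0.11), Cox7a2 (0.07 and -0.13), Cox7b (0.15 and -0.07), Cox8a (0.08 and 0.15), Ndufa4 (0.18 and 0.04) and Ndufa4l2 (0.21 and 0.33).

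Complex II was called in C57BL/6J only, though the difference between strains was not. Sdha (chromosome 13, 74322254 to 74350280, minus strand) had 465, 489 and 545 CPM (lowest, median, highest) in chow livers of C57BL/6J and 522, 597 and 622 in its high-fat livers, or 0.23 on the log2 scale (SE 0.061, edgeR adjusted p = 0.0123). Sdhc (chromosome 1, 171127165 to 171150603, minus strand) had 111, 118 and 125 CPM on chow, and on the high-fat diet 127, 131 and 144, with no overlap and 0.17 (SE 0.051, edgeR adjusted p = 0.0216), a call lost when chow replicate 2 (0.0576) or high-fat replicate 7 (0.0552) was left out. In 129S1/SvImJ the values were 0.14 for Sdha (edgeR adjusted p = 0.187) and 0.09 for Sdhc (edgeR adjusted p = 0.315), and the interaction gave 0.716 and 0.674 as edgeR adjusted p. In complex III the core protein Uqcrc2 rose in 129S1/SvImJ by 0.21 (SE 0.054, edgeR adjusted p = 0.0128, no overlap). No subunit of complex V was called for diet in either strain, Atp5b (0.11 and 0.03), Atp5g1 (-0.00 and -0.15), Atp5g2 (0.03 and -0.08) and Atp5g3 (0.10 and 0.12) included.

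**Figure D4:**
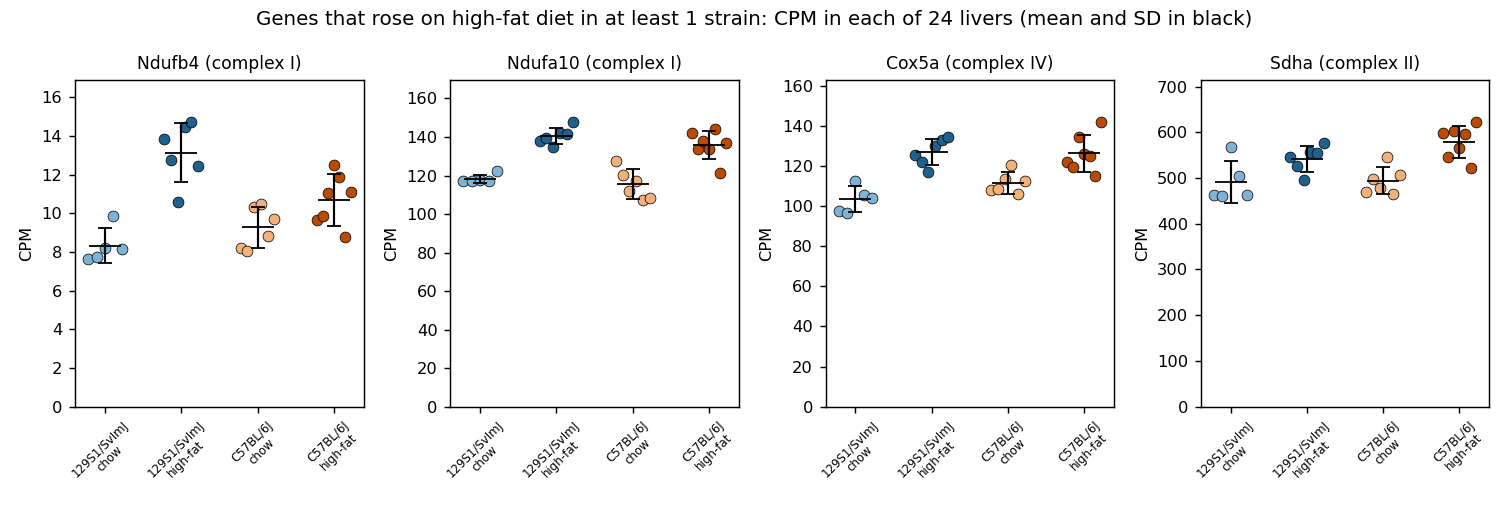
CPM of Ndufb4, Ndufa10, Cox5a and Sdha in each of 24 livers (points) by strain and diet, with the mean and SD of each group in black. High-fat livers of 129S1/SvImJ lie above all its chow livers for Ndufb4, Ndufa10 and Cox5a, and Sdha was called in C57BL/6J only.

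Ndufa10 and Cox5a were the genes called for diet in both strains, 25% of the 129S1/SvImJ calls and 50% of the C57BL/6J calls. This overlap too was not counted over all genes tested. Whether the diet change itself differed between strains was tested as the interaction, and 0 of 87 genes passed (0.296% of all genes passed). At an unadjusted p under 0.05 there were 6 (14.3% of all genes), and DESeq2 called 1 of 87, against 2.04% of all genes. The smallest p was that of Cox7c (interaction 0.35, SE 0.093, edgeR adjusted p = 0.0804), followed by Ndufb4 (0.45, SE 0.149, edgeR adjusted p = 0.156) and Ndufaf4 (0.43, SE 0.157, edgeR adjusted p = 0.195). The unequal numbers of calls in the 2 strains do not show unequal responses. In simulated counts the interaction test recovered 18 or 28% of 1.5-fold changes in genes drawn from all those tested. The mean level of all tested genes was below that of the 87 in every library, so these percentages may not hold for the 87. Interaction estimates of the 87 ran from -0.242 to 0.45. The 0 calls do not show equal responses either.

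These counts moved with 1 library and with a level of small RNA. Chow replicate 3 of 129S1/SvImJ had the highest mean log2(CPM + 0.5) over the 87 genes, 6.02, against 5.62 to 5.80 in the other 4 of its group, and without it 20 genes rose on high-fat diet in place of 8 (23.0%, against 9.47% of all genes). The same library had the highest level of 7SK, an abundant non-coding RNA of the nucleus (7258 CPM, against 2097 to 6206 in the other 23). Split at the median 7SK level into 12 lower and 12 upper libraries, every lower library of a group had a lower level of these genes than its upper libraries: 5.62 to 5.70 against 5.80 to 6.02 and 5.81 to 5.89 against 5.94 to 5.96 in 129S1/SvImJ (chow, high-fat diet), and 5.55 to 5.61 against 5.72 to 5.76 and 5.62 to 5.72 against 5.73 to 5.88 in C57BL/6J. With the 7SK level as a covariate 16 genes rose in 129S1/SvImJ (18.4%, against 11.8% of all genes) and 9 in C57BL/6J (10.3%, against 16.4%), and 0 fell in either. Within the lower 12 libraries 5 and 0 genes were called for diet (4.33 and 1.02% of all genes), within the upper 12 libraries 1 and 1 (1.62 and 8.6% of all genes), with median log2 fold changes of 0.17 and 0.00 in 129S1/SvImJ and 0.10 and 0.07 in C57BL/6J. The strain calls of Cox6b2, Ndufa12, Cox7c, Sdhb, Cox6b1 and Ndufa6 held within the lower 12 and within the upper 12 libraries on both diets. Of these, Ndufa6 was lower in 129S1/SvImJ and the others higher. The labels name no batch, and what sets the 7SK level was not tested.

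**Figure D5:**
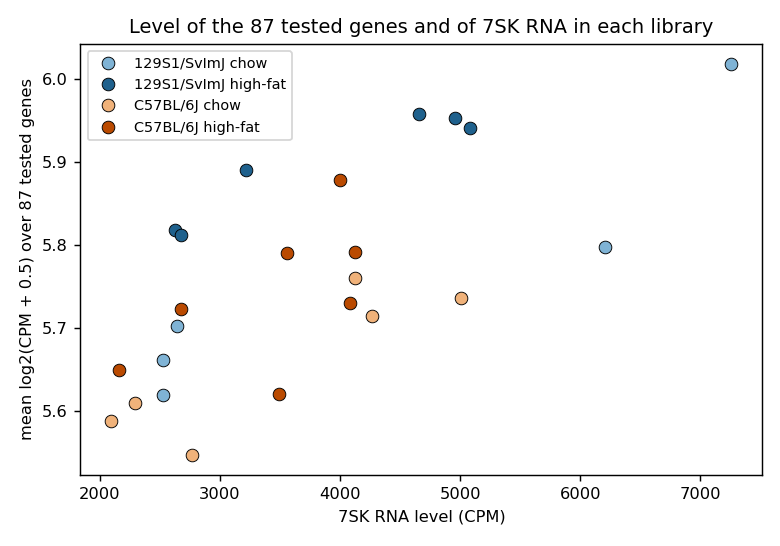
Mean log2(CPM + 0.5) over the 87 tested genes (y axis) against the CPM of 7SK RNA (x axis) in each of 24 libraries, coloured by strain and diet. Within each group the libraries above the median 7SK level lie higher than those below it, and 129S1/SvImJ chow replicate 3 is at the upper right (7258 CPM, 6.02).

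Nuclear respiratory factor 1 (Nrf1), the ETS factor GABP, YY1 and the oestrogen-related receptor alpha (Esrra) are known regulators of respiratory chain genes, and PGC-1alpha (Ppargc1a) is their coactivator. Of 18 genes in a list of such regulators, 2 rose in 129S1/SvImJ, and in C57BL/6J 1 rose and 3 fell (11.1 and 22.2% called, against 10.4 and 14.9% of all genes). Esrra rose in both strains, in 129S1/SvImJ from 31.5 CPM ± 4.36 (SD, n = 5) to 40.2 ± 3.80 (SD, n = 6; log2 0.35, edgeR adjusted p = 0.0214) and in C57BL/6J from 27.9 CPM ± 2.25 (SD, n = 6) to 33.8 ± 4.78 (SD, n = 7; log2 0.28, edgeR adjusted p = 0.0378). Nrf1 fell in C57BL/6J (-0.32, edgeR adjusted p = 0.0116) and differed by -0.04 in 129S1/SvImJ (edgeR adjusted p = 0.87). Yy1 (-0.24) and Gabpb2 (-0.25) also fell in C57BL/6J. Tfb1m, a methyltransferase of mitochondrial ribosomal RNA, rose in 129S1/SvImJ (0.45, edgeR adjusted p = 0.00374) and was higher there than in C57BL/6J on both diets (0.56 and 0.90). The other regulators fixed for naming were not called for diet: Ppargc1a (-0.34 in 129S1/SvImJ and -0.34 in C57BL/6J), Ppargc1b (-0.14 and -0.31), Gabpa (0.17 and -0.05) and Tfam (0.03 and -0.06). Of the 18, 3 were higher in 129S1/SvImJ on chow and 1 (Nrf1, -0.40) lower, and 5 were higher on high-fat diet, Lrpprc (0.45) and Gabpa (0.22) among them. These are 22.2 and 27.8%, below the 25.0 and 37.0% of all genes.

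RefSeq windows of 250 bases before to 50 after each start (GRCm38.p6) were matched to 76 of the 93 genes and searched on both strands. The NRF1 motif (GCGCA, any base, GCGC) was in 19 of 76 (25.0%), against 5.19% of 27025 genes with a window and 11.1% of the 10265 of them that were tested. The YY1 motif AAGATGGCG was in 10.5% (3.51% of tested genes), the ETS motif CCGGAAG in 23.7% (19.4%), the receptor motif TCAAGGTCA in 2.63% (0.341%), CCAAT in 44.7% (42.7%) and TATAAA in 9.21% (9.46%). Of the 10 genes called for diet in either strain 8 had a window, and 3 held the NRF1 motif: Ndufaf4, Ndufb4 and Sdha. A match is a stretch of letters and not shown binding. The stretches upstream of 2 of them are shown because they hold that motif beside the genes of largest fold change on high-fat diet among the called complex I genes, with the NRF1 motif and CCAAT (either strand) in capitals. The Ndufaf4 stretch lies 150 to 1 bases before the start (chr4:24897933-24898082, plus strand), and holds 1 NRF1 match. The Ndufb4 stretch lies 235 to 86 bases before the start (chr16:37654454-37654603, minus strand), with the NRF1 motif at 191 and CCAAT at 151 bases.
Ndufaf4: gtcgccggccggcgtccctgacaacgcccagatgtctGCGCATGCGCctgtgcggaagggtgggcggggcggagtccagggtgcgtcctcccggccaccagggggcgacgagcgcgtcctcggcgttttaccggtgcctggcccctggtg
Ndufb4: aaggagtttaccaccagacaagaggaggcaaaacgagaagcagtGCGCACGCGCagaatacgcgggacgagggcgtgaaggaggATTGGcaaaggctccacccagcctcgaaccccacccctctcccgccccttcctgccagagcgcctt

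Genes that work beside the complexes were read from 4 further lists. Of 18 citrate cycle genes 7 rose on high-fat diet in 129S1/SvImJ and 0 fell, and in C57BL/6J 7 rose and 1 fell, with medians of 0.19 and 0.16. These shares, 38.9 and 44.4%, are above the 10.4 and 14.9% of all genes. Dlst (0.23 and 0.20) and the succinyl-CoA ligase gene Suclg2 (0.36 and 0.41) rose in both strains, and Suclg1 had the smallest p in C57BL/6J after Pcx (0.53). Fumarase (Fh1) fell in C57BL/6J (-0.42, edgeR adjusted p = 0.00246) and was called in the interaction (0.68, edgeR adjusted p = 0.0344). Between strains none of the 18 was called on chow (0%, against 25.0% of all genes). On high-fat diet 5 were higher in 129S1/SvImJ and 4 lower (50%, against 37.0% of all genes), with Dlat (-0.69) at the smallest p.

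Of 41 tested assembly factors outside the naming rule 2 rose in each strain on high-fat diet: Coa6 (0.67) and Coa5 (0.24) of complex IV in 129S1/SvImJ, and Acad9 (0.25) of complex I and Tmem70 (0.20) of complex V in C57BL/6J. Between strains 8 were higher in 129S1/SvImJ and 2 lower on each diet. These shares, 4.88% for diet in each strain and 24.4% between strains on each diet, are below those of all genes (10.4, 14.9, 25.0 and 37.0%). The complex IV insertase Cox18 (0.59 and 0.64) and the copper chaperone Sco2 (1.08 and 0.59) were higher, and Lyrm7, a complex III factor, lower (-1.42 and -1.22). Of 19 genes of electron carriers and coenzyme Q synthesis 1 rose in 129S1/SvImJ (Pdss1, 0.49) and 2 in C57BL/6J (Coq2, 0.32, and Coq6, 0.27), or 5.26 and 10.5%, both below the share of all genes. Coq4 (0.95 and 0.74) and Coq5 (0.58 and 0.50) were higher and Coq7 (-0.63 and -0.61) lower in 129S1/SvImJ on both diets. Of 10 tested mitochondrial carriers and porins, Slc25a5, an ADP/ATP carrier, rose (0.25) and the citrate carrier Slc25a1 fell (-0.62) in 129S1/SvImJ, and the dicarboxylate carrier Slc25a10 rose (0.71) in C57BL/6J. These diet calls are 20 and 10% of the 10, against 10.4 and 14.9% of all genes. Between strains, 2 of the 10 were higher in 129S1/SvImJ on chow and 0 lower (20%, against 25.0% of all genes). On high-fat diet 3 of the 10 were higher in 129S1/SvImJ, led by Vdac2 (0.34), and 4 lower, led by Slc25a10 (-0.71). That is 70%, against 37.0% of all genes.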

How the data were processed

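Liver RNA of 24 mice was read as 1 library each. Per the labels' protocols, total RNA was depleted of ribosomal RNA and made into strand-preserving libraries, and mm10, the C57BL/6J reference, appears in the submitters' processing notes. These notes list the tools DESeq2 1.26.0, STAR 2.5.4b, Bowtie2 2.2.3 and Trimmomatic 0.36 with no roles. The authors deposited raw gene counts, used for all main tests, and a matrix of variance-stabilized log2 values, used for 1 alternative with limma 3.58.1. DESeq2 1.42.0 gave another alternative. For the annotation and strand setting of the counting, nothing is stated: not given in the sources used here. Identifiers were matched to GENCODE M21 (53582 of 53677).

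Counts were fitted in R 4.3.3 with edgeR 4.0.16 (filterByExpr, 14533 genes; trimmed mean of M-values; robust quasi-likelihood; 1 mean per group; all 24 libraries). Every adjusted p is two-sided, from edgeR with Benjamini-Hochberg adjustment over these genes, and a gene was called under 0.05. A strain difference is 129S1/SvImJ minus C57BL/6J, a diet change is high-fat diet minus chow, and the interaction is the diet change of 129S1/SvImJ minus that of C57BL/6J. Levels are CPM on the adjusted library sizes, and values are given with SD over mice. The procedure was tested on simulated counts with known changes in genes drawn from all those tested. It recovered 16% of 1.25-fold and 46 to 56% of 1.5-fold changes for diet or strain. For the interaction it recovered 2 or 4% at 1.25-fold and 18 or 28% at 1.5-fold, by simulation. False calls were 0.8 to 6.3% of the calls. Near-identical copies were searched with blastn (90% identity over 200 bases): 30 members had one, and copies held at most 4.57% of a member's CPM.

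Members, lists and comparisons were chosen with earlier results of these data known. Named genes are every called member (in the comparison of strains on high-fat diet, the 12 with the smallest p per direction), fixed isoforms and regulators whatever their p, the highest and lowest member per length of each complex, and up to 3 called genes per further list. Other members were named after their values were seen. Some genes that this rule names are not reported here. The labels do not say whether mice shared a litter or cage. The labels give each liver its own mouse identifier. A number within it took 2 values in each group, none shared between groups, and its meaning is not given in the labels. No 2 libraries of a group agreed within sampling noise: over 61 pairs, chi-square divided by its degrees of freedom was 5.56 to 78.8.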

Additional observations from a re-analysis of the deposited data

Results flagged for a closer look

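Within groups, 15 of 192 sets of values of 40 named genes and complex means held 1 library far from the others by Dixon's ratio, where chance gives about 1 in 20. In 129S1/SvImJ on chow, replicate 3 stood high for Atp5e (124 CPM, others 75.8 to 83.6), Cox4i1 (329, others 228 to 247), Cox6a1 (205, others 117 to 139), Cox6b1 (191, others 136 to 143) and Ndufb5 (93.5, others 67.5 to 71.6). In the same group replicate 5 was high for Ndufa10 (122 CPM, others 117 to 118), replicate 4 high for Ndufb4 (9.89, others 7.67 to 8.23) and replicate 1 low for Ndufaf4 (26.1, others 33.8 to 36.3). In 129S1/SvImJ on high-fat diet, replicate 6 was high for Ndufv1 (160 CPM, others 141 to 147). In C57BL/6J on chow, replicate 4 was high for Atp5e (77.5 CPM, others 69.5 to 71.4), Cox7c (42.6, others 34.4 to 37.3) and the mean log2 level of complex II (7.622, others 7.469 to 7.524). There replicate 5 was low for Atp5b (930 CPM, others 983 to 1010) and replicate 1 high for Ndufa4l2 (1.74, others 0.579 to 0.932). In C57BL/6J on high-fat diet, replicate 6 was low for Uqcrc2 (174 CPM, others 206 to 214).

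Cox7a2 moved in opposite directions with diet in every mouse of the 2 strains relative to the chow mean (73.26 CPM in 129S1/SvImJ). Without 129S1/SvImJ chow replicate 3 (60.71 CPM, the others 73.69 to 79.36) that mean was 76.4 CPM, and 5 of 6 high-fat livers lay above it, so the pattern rests on that library. Over all libraries the interaction was 0.205 with an edgeR adjusted p of 0.258.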

How the results depend on the processing

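No called gene changed sign under any alternative run. Of 1840 recomputed medians over members or a complex, 74 took the other sign, among them the strain median on chow (0.06), which was -0.02 without 129S1/SvImJ chow replicate 3 and -0.04 in libraries of low 7SK. Calls for diet in 129S1/SvImJ (8) became 16 with 7SK as a covariate (18.4%, against 11.8% of all genes). In the 22 libraries of low 7SK they were 24 (27.6%, against 9.17%). The lower 12 libraries by 7SK gave 5 (5.75%, against 4.33%) and the upper 12 gave 1, a share below the 1.62% of all genes. Leaving out 1 library gave 6 (6.90%, against 6.49 and 7.22% in the fits concerned) to 20 (23.0%, against 9.47%, without chow replicate 3). Calls for diet in C57BL/6J (4) became 7 with DESeq2, 2 with no filter on low counts, 9 with 7SK as a covariate, 0 in the lower 12 and 1 in the upper 12 libraries, and 2 to 7 leaving out 1 library (2 without chow replicate 2 or high-fat replicate 7, 7 without high-fat replicate 6). Strain calls on chow (15, 12 higher) were 11 with only the groups compared (12.6%, against 24.1% of all genes). They were 19 (12 higher) with 7SK as a covariate (21.8%, against 26.4%) and 12 (7 higher) in libraries of low 7SK (13.8%, against 21.2%). Each set of 12 gave 10 (11.5%, against 13.4% in the lower and 10.2% in the upper). Leaving out 1 library gave 13 (14.9%, against 23.9%) to 18 (20.7%, against 21.8%). Strain calls on high-fat diet (23) became 14 and 11 in the lower and upper 12 (16.1 and 12.6%, against 19.4 and 22.8% of all genes). Leaving out 1 library gave 20 (23.0%, against 35.6 and 35% in the fits concerned) to 27 (31.0%, against 37.7%). The interaction (0) gave 1 with DESeq2 and 0 to 0 leaving out 1 library. The causes were not tested, though the sets of 12 hold fewer samples. With the replicate block, diet in C57BL/6J gave 2 calls (2.30%, against 12% of all genes), Cox5a and Sdhc being lost. The other comparisons gave 9, 15, 26 and 0 (10.3, 17.2, 29.9 and 0%, against 10.3, 24.5, 35.7 and 0.117%). The labels state no pairing by replicate number. Same-numbered libraries of different groups had a median correlation of 0.054 (-0.22 to 0.314, 33 pairs), against -0.01 for libraries of other numbers. Of 24 libraries, 7 were closest to their own number. Whether this exceeds what unpaired samples give was not tested. The fits in 12 libraries, and that without libraries with fat cell transcripts, were chosen after seeing the data. The latter lost the diet calls of Ndufv2 and Ndufaf4 in 129S1/SvImJ (6.90% called, against 7.36% of all genes). It also lost the strain calls of Atp5l and Ndufb5 on high-fat diet (24.1%, against 33.4%). A fit in the libraries of high 7SK was not run, since that side held 2, both of 129S1/SvImJ on chow. Counts of Cox6b2 in C57BL/6J (0 to 6 per library) limit its fold.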
